A study of Sus scrofa with 10 samples.

Results

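Glycogen is the branched polymer in which animal cells store glucose. Glycogen synthase (GYS1, the muscle form, and GYS2, the liver form) lengthens the chains and the branching enzyme GBE1 adds branch points. Glycogen phosphorylase, which has a muscle (PYGM), a brain (PYGB) and a liver form (PYGL), releases glucose 1-phosphate, and phosphoglucomutase (PGM1) converts it to glucose 6-phosphate. Phosphorylase is switched on by phosphorylase kinase, whose muscle-type regulatory alpha subunit is encoded by PHKA1 and whose muscle-type catalytic gamma subunit is encoded by PHKG1. Liver glycogen supplies blood glucose, whereas muscle glycogen serves the fibre that holds it.

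These 9 genes were chosen by symbol among the 25880 gene models of a table of RNA abundance in pig tissues, and all 9 were found. Each library came from a 60-day-old pig of the Northeast Min breed, and no treatment, sex or number of animals is given in the labels. The 9 single-tissue libraries were longissimus dorsi, psoas major muscle, heart, liver, kidney, subcutaneous adipose, lung, spleen and ovary. The other library was a pool whose label names ovary, muscle, kidney, lung, spleen, liver and heart but not adipose. With 1 library per tissue there is no replicate spread, so no difference here has an error or a p-value, and differences are described by their size against the share of all genes that differed as much. In bulk tissue, fewer cells of a type and less RNA per cell cannot be told apart.

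Values were read as FPKM, fragments per kilobase of gene model scaled to library size, which can be compared between genes within a library. The sums ran from 292495 FPKM in kidney to 369254 in longissimus dorsi. From the spacing of low values on short models, 1 read or fragment on a model of 1 kb was worth between 0.0282 FPKM in adipose and 0.0492 in heart, the least deeply sequenced library. The number of counted reads behind a value is otherwise unknown. The labels were checked with 9 lists of tissue-defining markers, and all 40 matched genes were highest in the labelled tissue or muscle class. The symbols of the cardiac markers NPPA and MYL7 were not matched to a gene model.

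The locations are those of the deposited table on the assembly Sscrofa11.1. PYGM (ENSSSCG00000013022) lay on chromosome 2 at 7406764 to 7423914, PYGB (ENSSSCG00000022815) on chromosome 17 at 30941752 to 30997872, and PYGL (ENSSSCG00000005024) on chromosome 1 at 180637348 to 180719442. PHKA1 (ENSSSCG00000012411) lay on chromosome X at 58456069 to 58583279 and PHKG1 (ENSSSCG00000007744) on chromosome 3 at 16822009 to 16834329. GYS1 (ENSSSCG00000003154) lay on chromosome 6 at 54231329 to 54250317, GYS2 (ENSSSCG00000000577) on chromosome 5 at 51852976 to 51917689, and GBE1 (ENSSSCG00000012000) on chromosome 13 at 173634661 to 173910739. The model read as PGM1 (ENSSSCG00000003812, chromosome 6, 148851184 to 148913792) carried the symbol EFCAB7 in the Ensembl table. However, it overlapped by 92.5% with the RefSeq gene PGM1, as a share of the longer span. On the same measure, the RefSeq gene EFCAB7 overlapped by 98.1% with a separate model at 148939053 to 148996669. That neighbouring model stayed at or below 8.23 FPKM in every tissue, so the values below were taken as those of PGM1. Among the other members, PYGM, PYGB, PHKG1, GYS2 and GBE1 lay on the plus strand and PYGL, PHKA1 and GYS1, like PGM1, on the minus strand.

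Of the 9 genes, 4 were highest in skeletal muscle (PYGM, PHKA1, PHKG1 and PGM1), where 4.29% of the 15623 genes detected at 1 FPKM or more were highest. PYGL and GYS2 were highest in liver (5.68% of all genes), PYGB in heart (7.05%), GYS1 in kidney (13.0%) and GBE1 in subcutaneous adipose (6.73%). None of the 9 was highest in lung, spleen or ovary, which held 15.1%, 19.2% and 29.0% of all genes. Here psoas major and longissimus dorsi counted as a single class, the mean of both, which gave 8 classes. PYGM, PHKA1 and PGM1 were at least 5-fold above every other class on the scale of FPKM + 1, a rule met by 6.50% of all detected genes in any class and by 0.621% in skeletal muscle. PHKG1 stood just inside the line at 4.94-fold and PYGB in heart at 4.35-fold, and median-of-ratios scaling took both past 5-fold. With the muscles kept as separate tissues no member was enriched, since PYGM, PHKA1 and PGM1 were high in both. PYGL, PGM1, GYS1 and GBE1 were at 1 FPKM or more in all 9 tissues, as were 49.1% of detected genes, while GYS2 reached 1 FPKM in 2 tissues. The specificity index tau, which is 0 for equal levels and 1 for a single class, had a median of 0.60 over the 9 genes and of 0.41 over all detected genes. It was highest for GYS2 (0.87) and PYGM (0.80), and lowest for GYS1 and PYGL (0.22 and 0.23).

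**Figure D1:**
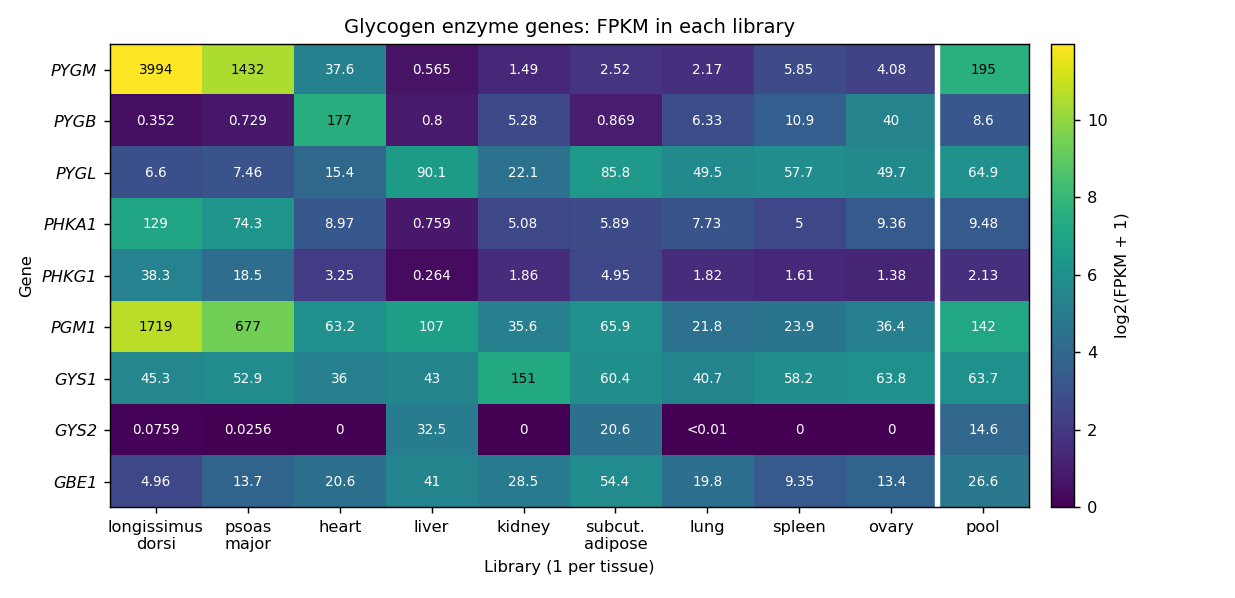
Level of the 9 glycogen enzyme genes (rows) in each library (columns, 1 library per tissue, the pool set apart by a white line); colour is log2(FPKM + 1) and the printed number is the FPKM. PYGM and PGM1 reach 3994 and 1719 FPKM in longissimus dorsi, PYGB 177 in heart, GYS1 151 in kidney, and GYS2 is above 1 FPKM in liver, adipose and the pool.

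The phosphorylase genes divided the tissues most sharply. PYGM, the muscle form, stood at 3994 FPKM in longissimus dorsi, 1432 in psoas major, 37.6 in heart, 5.85 in spleen, 4.08 in ovary, 2.52 in adipose, 2.17 in lung, 1.49 in kidney and 0.565 in liver. Both skeletal muscles stood far above the other tissues, with a mean 72.1 times the heart level, and liver was lowest, at 1 part in 4802 of the muscle mean. The PYGM model shares 1111 bp with RASGRP2 on the same strand, which stood at 97.1 FPKM in spleen, so how reads of that stretch were assigned bears on the low PYGM value there.

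PYGB, the form named for brain, followed another order. It stood at 177 FPKM in heart, 40.0 in ovary, 10.9 in spleen, 6.33 in lung and 5.28 in kidney, and at 0.869 in adipose, 0.729 in psoas major and 0.352 in longissimus dorsi, with liver between adipose and psoas major. Heart was 4.43 times as high as ovary, the next tissue, and 328 times as high as the muscle mean. Adipose, liver and both skeletal muscles were all under 1 FPKM. The PYGB model shares 4799 bp with ABHD12 on the opposite strand, which was also highest in heart (51.5 FPKM) and next in ovary (22.2). Without strand, reads of that stretch cannot be assigned to either gene.

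PYGL, the liver form, was the most evenly spread phosphorylase gene. It stood at 90.1 FPKM in liver, 85.8 in adipose, 57.7 in spleen, 49.7 in ovary, 49.5 in lung, 22.1 in kidney, 15.4 in heart, 7.46 in psoas major and 6.60 in longissimus dorsi. Liver and adipose differed by 1.05-fold and changed places when all libraries were scaled to a common sum, so neither can be called the higher one. The skeletal muscles were lowest, 12.8-fold below liver on average. The PYGL model shares 23718 bp with ABHD12B on the opposite strand, which stood at 2.25 FPKM or less in every tissue.

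As shares of the summed phosphorylase level within a library, PYGM made up 99.8% in longissimus dorsi and 99.4% in psoas major. PYGB made up 77.0% in heart, where PYGM had 16.3% and PYGL 6.71%. PYGL led in the other 6 tissues, with 98.5% in liver, 96.2% in adipose, 85.3% in lung, 77.6% in spleen, 76.6% in kidney and 53.0% in ovary. Ovary was the most mixed of these, with 42.7% PYGB. Each of the 3 isoforms thus led in at least 1 tissue. Quantile normalisation keeps the order of genes within a library, so it cannot test which form leads.

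**Figure D2:**
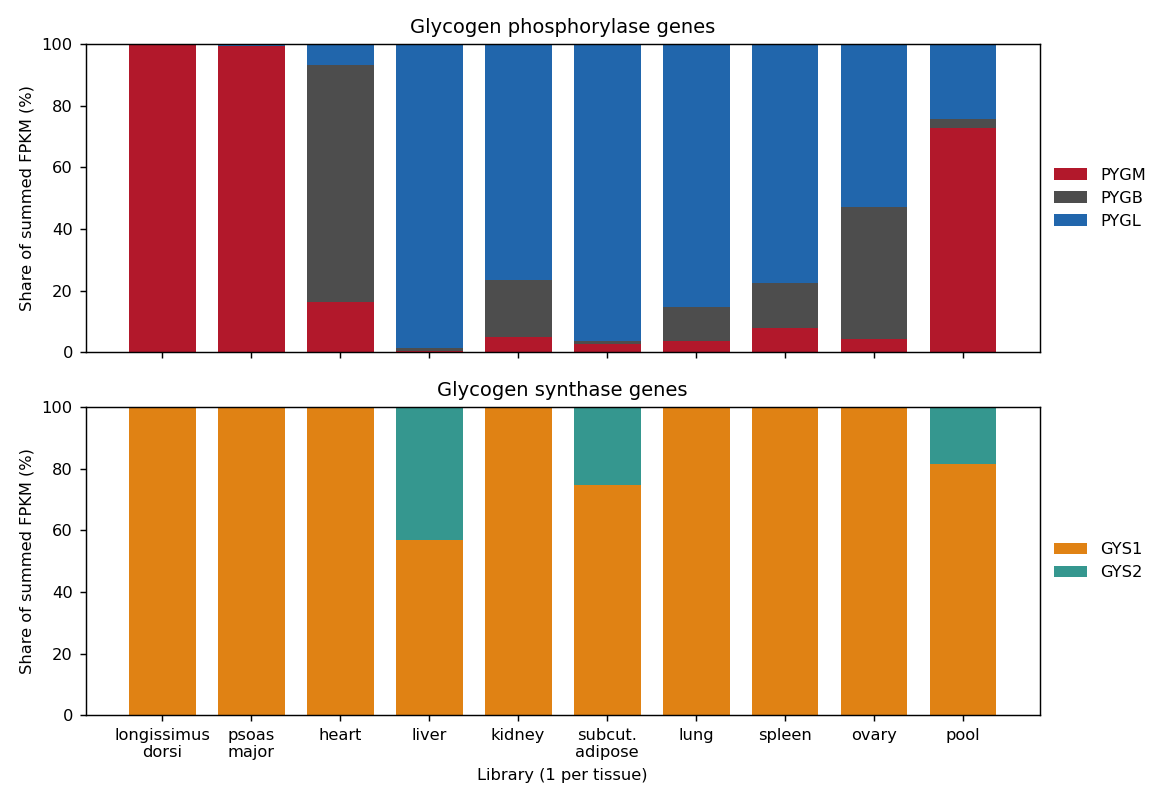
Share of each isoform in the summed FPKM of its family (vertical axis, percent) in each library (horizontal axis, 1 library per tissue), for the phosphorylase genes above and the synthase genes below. PYGM takes 99.8% in longissimus dorsi, PYGB 77.0% in heart and PYGL 98.5% in liver, and GYS2 has a visible share in liver (43.0%), adipose (25.4%) and the pool (18.6%).

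The muscle-type kinase subunits, like PYGM, were highest in longissimus dorsi, next in psoas major and lowest in liver. PHKA1 stood at 129 FPKM in longissimus dorsi, 74.3 in psoas major, 9.36 in ovary, 8.97 in heart, 7.73 in lung, 5.89 in adipose, 5.08 in kidney and 0.759 in liver, with spleen close to kidney. Both muscles were far above the rest, and the other tissues apart from liver lay within a factor of 2 of each other.

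PHKG1, a gene whose variation has been linked to muscle glycogen content in pigs, stood at 38.3 FPKM in longissimus dorsi and 18.5 in psoas major. It was at 4.95 in adipose, 3.25 in heart, 1.86 in kidney, 1.82 in lung, 1.61 in spleen, 1.38 in ovary and 0.264 in liver. Adipose came after the muscles and liver was again lowest. The PHKG1 model shares 3407 bp with SUMF2 on the opposite strand. SUMF2 stood at 16.7 FPKM in adipose, 15.6 in longissimus dorsi and 15.4 in kidney. It was at 6.15 in psoas major, 4.35 in heart and 2.43 in liver. Without strand, reads of that stretch cannot be told apart. The fast skeletal muscle markers summed to 45.9 FPKM in adipose over all 7 genes, none at 0, or 0.0842% of their sum in longissimus dorsi. PYGM in adipose was at 0.0630% of its longissimus level, PHKA1 at 4.55%, and PHKG1, with the SUMF2 overlap, at 12.9%.

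PGM1 stood at 1719 FPKM in longissimus dorsi, 677 in psoas major, 107 in liver, 65.9 in adipose, 63.2 in heart, 36.4 in ovary, 35.6 in kidney, 23.9 in spleen and 21.8 in lung. It combined a muscle peak with a level above 20 FPKM everywhere, and liver, the next tissue, was 11.2-fold below the muscle mean.

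On the synthesis side, GYS1 was the most evenly expressed gene of the 9. It stood at 151 FPKM in kidney, 63.8 in ovary, 60.4 in adipose, 58.2 in spleen, 52.9 in psoas major, 45.3 in longissimus dorsi, 43.0 in liver, 40.7 in lung and 36.0 in heart. Kidney was 2.37 times as high as ovary, and the other 8 tissues lay within 36.0 to 63.8 FPKM, an interval in which the order cannot be relied on without replicates. The GYS1 model overlaps 1425 bp of FTL, a ferritin gene on the opposite strand that was also highest in kidney, at 5733 FPKM against 2186 in spleen and 2168 in liver. It also shares 9189 bp with RUVBL2 on the opposite strand, which ranged from 7.42 FPKM in psoas major to 34.8 in spleen. The sources used here do not say whether strand was used, and without it reads of GYS1 and of these genes in the shared stretches cannot be told apart.

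GYS2, the liver synthase, was nearly confined to 2 of the 9 tissues in these libraries. It stood at 32.5 FPKM in liver and 20.6 in adipose, at 0.0759 in longissimus dorsi, 0.0256 in psoas major and 0.00627 in lung, and was listed at 0 in heart, kidney, spleen and ovary. The adipose level was 63.4% of the liver level. The hepatocyte markers ALB, APOC3, AHSG, TF and CPS1, all above 0 in adipose, summed there to 202 FPKM, 0.355% of their sum in liver. GYS1 was the larger part of the synthase level in liver (57.0%, against 43.0% for GYS2) and in adipose (74.6% against 25.4%). Both shares are subject to the overlaps of GYS1 with RUVBL2 and with FTL, which stood at 2168 FPKM in liver and 723 in adipose. Which form led in liver is therefore not settled here. In every other tissue GYS1 made up at least 99.8%.

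GBE1, the branching enzyme, was highest in adipose at 54.4 FPKM, followed by liver (41.0), kidney (28.5), heart (20.6), lung (19.8), psoas major (13.7), ovary (13.4), spleen (9.35) and longissimus dorsi (4.96). Adipose exceeded liver by 1.33-fold, an order that median-of-ratios scaling turned round. Longissimus dorsi, which had the highest PYGM, was the lowest of the 9 for GBE1.

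The balance of the families differed widely between tissues. The summed phosphorylase level was 88.2 times the summed synthase level in longissimus dorsi, 27.2 times in psoas major and 6.40 times in heart. In liver, adipose, lung, spleen and ovary the ratio lay between 1.10 and 1.47. Kidney was the one tissue with less phosphorylase than synthase transcript, at a ratio of 0.190. All these ratios are subject to the overlaps of GYS1 with FTL and RUVBL2. They are ratios of transcript levels per length and carry no statement on enzyme activity.

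Heart and skeletal muscle were compared as striated muscles with separate isoforms. Of 8 genes that could be compared, PYGB was higher in heart and PYGM, PGM1, PHKA1 and PHKG1 were lower by at least 2 on the log2(FPKM + 1) scale against each muscle. This threshold was passed by 3.01% of the 11145 genes compared towards heart and by 1.91% towards muscle. The difference for PYGM was -5.21 against psoas major and -6.69 against longissimus dorsi, and that for PYGB was 6.69 and 7.04. PGM1 differed by -3.40 and -4.74, PHKA1 by -2.92 and -3.71, and PHKG1 by -2.20 and -3.21. With a pseudocount of 5 PHKG1 no longer passed, at a mean difference of -1.95. PYGL (0.96 and 1.11), GBE1 (0.56 and 1.86) and GYS1 (-0.54 and -0.32) did not pass, and GYS2 was too low to be compared. The median over the 8 genes was -1.57, and over all genes 0.41. Heart held fast-fibre transcripts at very low levels: MYL11 was at 0.227 FPKM against 15165 in longissimus dorsi, and MYH4 at 0.00167 against 1966. CKM and ACTA1, which cardiac muscle also expresses, stood at 588 and 3653 FPKM in heart.

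Liver and skeletal muscle were compared as the main stores of glycogen. Of 8 genes compared, GYS2 and PYGL were higher in liver, and PYGM, PHKA1, PHKG1 and PGM1 were lower, again by at least 2 against each muscle. Of all 11109 genes, 9.12% passed towards liver and 6.67% towards muscle. GYS2 differed by 5.03 against psoas major and 4.96 against longissimus dorsi, and PYGL by 3.43 and 3.58. PYGM differed by -9.84 and -11.32, PHKA1 by -5.42 and -6.21, PHKG1 by -3.95 and -4.96, and PGM1 by -2.65 and -3.99. GBE1 passed against longissimus dorsi (2.82) but not psoas major (1.52), so it was not called, and GYS1 differed by -0.29 and -0.07. PYGB was under 1 FPKM in liver and in both muscles. The median over the 8 genes was -1.75, and over all genes -0.07. The heart and liver comparisons share both muscle libraries.

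Between the 2 skeletal muscles, PYGM, PGM1 and PHKG1 were higher in longissimus dorsi and GBE1 was higher in psoas major, each by at least 1 on the log2(FPKM + 1) scale. Of the 10513 genes compared, 2.09% passed towards longissimus dorsi and 4.66% towards psoas major. PYGM was 2.79 times, PGM1 2.54 times and PHKG1 2.07 times as high in longissimus dorsi, with log2 differences (psoas minus longissimus) of -1.48, -1.34 and -1.01. PHKA1 was just inside the threshold at -0.79, while GBE1 stood at 1.30. GYS1 (0.22) and PYGL (0.15) did not pass, and GYS2 and PYGB were too low. The median of all genes lay 0.27 towards psoas major, and relative to it the differences were -1.75 for PYGM, -1.61 for PGM1, -1.28 for PHKG1, -1.07 for PHKA1 and 1.03 for GBE1, while those of GYS1 and PYGL changed sign (-0.05 and -0.12). The PHKG1 call was lost with a pseudocount of 5 (-0.88) and with libraries scaled to a sum of 1000000 (-0.82). Quantile normalisation left 1 gene past the threshold towards longissimus dorsi (PHKG1) and 0 towards psoas major. The 7 listed fast skeletal muscle markers in psoas major summed to 57.4% of their sum in longissimus dorsi. That sum includes ACTA1 and CKM, which heart also expressed, and single markers ran from 24.0% (MYH4) to 71.8% (TNNI2). The matched slow-fibre markers TNNI1, TNNT1 and MYL2 summed to 113%, and MYH7 was not matched to a gene model. MYL2 was highest in heart, at 3664 FPKM against 525 in longissimus dorsi and 620 in psoas major. The part of fibre type in the differences between the 2 muscles was not tested.

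**Figure D3:**
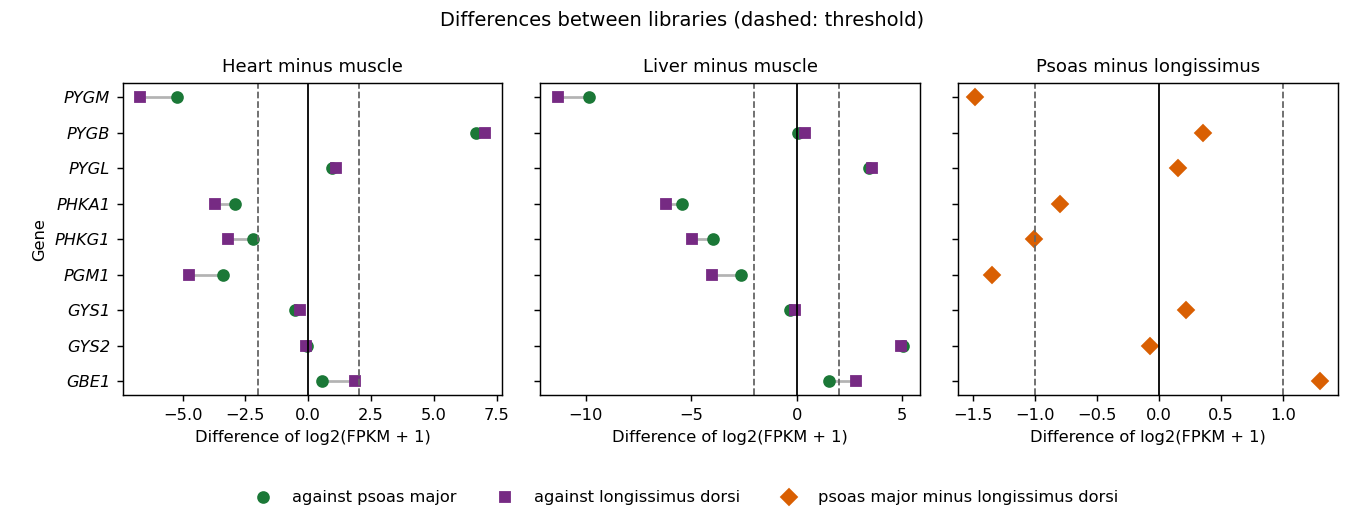
Difference of log2(FPKM + 1) (horizontal axis) for each gene (rows) in 3 comparisons; circles are against psoas major, squares against longissimus dorsi, diamonds psoas major minus longissimus dorsi, and dashed lines mark the thresholds of 2, 2 and 1. PYGM lies at -5.21 and -6.69 and PYGB at 6.69 and 7.04 in heart, GYS2 at 5.03 and 4.96 in liver, and PYGM and GBE1 at -1.48 and 1.30 between the muscles.

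The partners of phosphorylase kinase were compared with its muscle-type subunits. The kinase also needs a beta subunit (PHKB) and has other forms of the alpha and gamma subunits (PHKA2 and PHKG2). PHKB stood at 126 FPKM in longissimus dorsi, 84.8 in psoas major and between 9.82 and 20.8 in the other tissues. PHKA2 ran the opposite way, from 0.265 in longissimus dorsi and 0.401 in psoas major to 5.04 in liver and 10.2 in ovary. PHKG2 was lowest in longissimus dorsi (1.89) and highest in spleen (14.5). In liver both PHKA2 and PHKG2 (4.22) were above their muscle-type counterparts PHKA1 (0.759) and PHKG1 (0.264), whereas in heart PHKA1 (8.97) was above PHKA2 (2.64) and PHKG1 (3.25) lay close to PHKG2 (3.52). Of the 5 partner genes listed, 1 was called higher in liver than muscle (PHKA2) and 2 lower (PHKB and CALM3), beside 9.12% and 6.67% of all genes. PHKB was also called lower in heart, as were 1.91% of all genes.

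The targeting subunits that bring protein phosphatase 1 to glycogen, where it activates synthase and inactivates phosphorylase, each had a pattern of their own. PPP1R3A, the muscle form, stood at 31.6 and 28.0 FPKM in longissimus dorsi and psoas major, and was under 0.1 in the 6 tissues other than heart, where its log2 difference from psoas major was -3.23. PPP1R3C stood at 109 in heart and at most 7.39 in the others, 13.1-fold above the next class on the scale of FPKM + 1. PPP1R3B, named for liver, was at 9.20 in liver but at 26.7 in psoas major and 4.21 in longissimus dorsi. PPP1R3B, PPP1R3C and PPP1R3G passed the threshold towards psoas major, with differences of 2.41, 1.02 and 1.10. These were 3 of the 8 targeting and catalytic subunits compared, beside 4.66% of all genes in that direction. The differences are not centred on the all-gene median, which lay 0.27 towards psoas major. PPP1R3C and PPP1R3G exceeded the threshold of 1 by less than that. PPP1R3D was listed at 0 in all libraries. The PPP1R3G model also contains RPP40.

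Of the remaining enzymes, GYG1, whose protein primes new glycogen, stood at 124 and 120 FPKM in the muscles (longissimus dorsi and psoas major), 77.1 in heart and 3.37 in liver. GYG2, another primer gene, was enriched in adipose at 27.0, against 3.98 in lung. UGP2, which makes the UDP-glucose used by synthase, was highest in psoas major (171) and liver (144) and lower in heart than in both muscles. GAA, the lysosomal glucosidase, was highest in ovary (54.6) and lowest in longissimus dorsi (10.4).

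Upstream kinases and sugar handling were read from fixed lists. PRKAG3, an AMP-activated kinase subunit known in pigs for its effect on muscle glycogen, stood at 17.4 FPKM in longissimus dorsi, 7.53 in heart and 5.96 in psoas major, with a psoas minus longissimus difference of -1.40. PRKAA2 and PRKAB2, also subunits of that kinase, were at least 17.0 in both skeletal muscles and under 1.4 in liver. In heart PRKAA2 was at 16.9, close to its level of 18.2 in longissimus dorsi, and PRKAB2 was at 8.74. G6PC1, which releases free glucose from glucose 6-phosphate, stood at 298 in kidney and 186 in liver and at most 1.00 in the other tissues. SLC2A2, the liver glucose transporter, was at 36.9 in liver and 8.67 in kidney, and GCGR, the glucagon receptor, at 128 in liver. HK2, a hexokinase, stood at 23.2 in psoas major, 11.0 in adipose, 6.59 in lung, 6.43 in longissimus dorsi and 0.543 in heart. HK1, another hexokinase, stood at 118 in heart.

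Over all lists, 52 of 55 genes were matched and 50 reached 1 FPKM in a tissue. Of these 11 were highest in skeletal muscle (4.29% of all genes) and 4 in liver (5.68%). The 4 enriched in a class, beside 6.50% of all genes, were PPP1R3A, PPP1R3C, GYG2 and GCGR. Against both skeletal muscles, 3 of 44 genes were higher and 5 lower in heart, beside 3.01% and 1.91% of all genes. In liver 5 of 44 were higher and 11 lower, beside 9.12% and 6.67%. Between the muscles, 7 of 40 passed towards psoas major and 3 towards longissimus dorsi, beside 4.66% and 2.09% of all genes. The medians over these genes were 0.34 for heart, -0.10 for liver and 0.28 for the muscle pair, close to the all-gene medians of 0.41, -0.07 and 0.27.

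**Figure D4:**
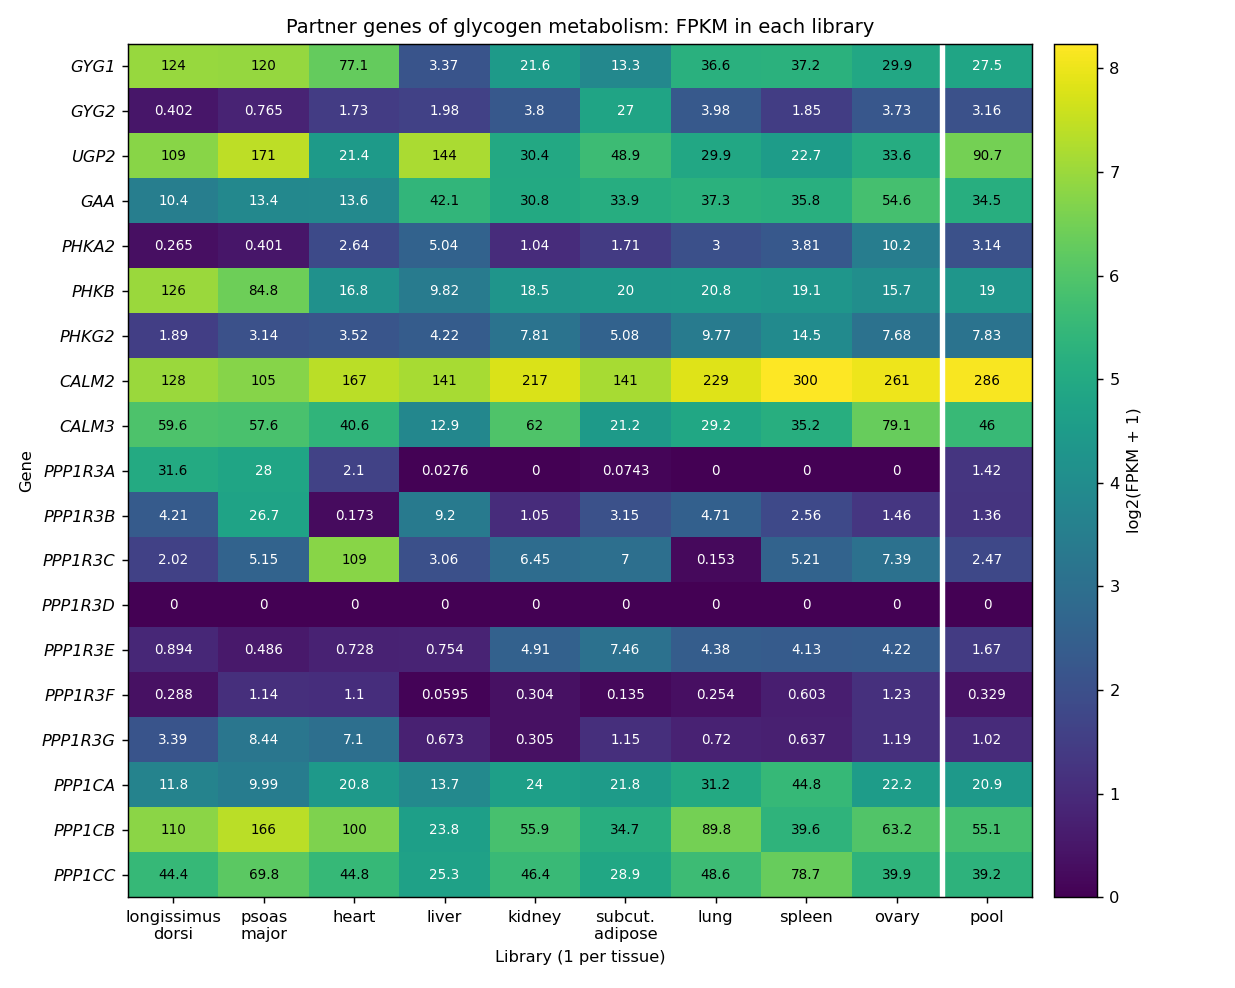
Level of 19 partner genes (rows; primers, a lysosomal enzyme, phosphorylase kinase partners and phosphatase subunits) in each library (columns, 1 library per tissue); colour is log2(FPKM + 1) and the printed number is the FPKM. PHKB peaks in the skeletal muscles, PPP1R3C reaches 109 FPKM in heart, GYG2 27.0 in adipose, and PPP1R3D is at 0 throughout.

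The genes whose levels were most like those of a member across the 9 tissues were named by Pearson's r of log2(FPKM + 1). These coefficients describe 9 libraries, 2 of them skeletal muscles, and carry no test. CASQ1, the calcium-binding protein of the muscle sarcoplasmic reticulum, was nearest to PYGM (r = 0.99), followed by MAFA and PPP1R3A (both 0.99). PHKB was second nearest to PHKA1 and to PHKG1 (both 0.97), with PDLIM7 and MAMSTR the others for PHKA1 and PSMD7 and ASB5 for PHKG1. The fast-fibre genes TNNT3, MYL1 and MYH4 were nearest to PGM1 (0.96 each). KCNH2, ABHD12 and NUBP1 were nearest to PYGB (0.97, 0.97 and 0.96). ABHD12 lies on the opposite strand and its model shares 4799 bp with that of PYGB, and reads of that stretch cannot be told apart without strand.

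Of the remaining members, GYS2 was most like CHST13 (0.99), HAL, a histidine-degrading enzyme, and THRSP, a regulator of lipid synthesis (both 0.97). PYGL was most like IGFBP4 (0.98), MIA3 and SURF4 (both 0.97). GBE1 was most like AIG1 and ACO1 (both 0.95) and TMEM120A (0.91). GYS1 was most like PLEKHG3, HOXB8 and TP53I3 (all 0.94). Among the 9 genes themselves, PYGM, PHKA1, PHKG1 and PGM1 had r between 0.79 and 0.95 with each other, and PYGL had r between -0.89 and -0.73 with those 4. GYS2 and GBE1 had r = 0.72.

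In the pool, PYGM stood at 195 FPKM, PGM1 at 142, PYGL at 64.9, GYS1 at 63.7, GBE1 at 26.6, GYS2 at 14.6, PHKA1 at 9.48, PYGB at 8.60 and PHKG1 at 2.13. GYS2 was at 44.9% of its liver level, and the 5 hepatocyte markers together were at 47.8% of theirs. PYGM was at 7.18% of the muscle mean, PHKG1 at 7.52% and PHKA1 at 9.31%, beside 6.99% for the summed fast skeletal muscle markers. PYGM thus made up 72.6% of the phosphorylase level of the pool.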

How the data were processed

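RNA was measured once in each of 10 libraries, made from total RNA with a TruSeq kit per the labels' protocols. StringTie 1.2.2, TopHat2 2.1.0 and the build Sscrofa11.1 appear in the submitters' processing notes. Strandedness, annotation release and filters were not stated in any source used. The deposited values were read as FPKM made by the authors, a unit inferred from the values and from StringTie, since the header names none. Symbols came from an Ensembl table (14835 models), from RefSeq genes with a reciprocal overlap of at least 0.5 where that gave none (1714), and from RefSeq in place of a table name whose own gene lay elsewhere (22, PGM1 among them). Levels were compared as log2(FPKM + 1). No count model or test was run, since there is 1 library per tissue. Thresholds were 5-fold for enrichment, 2 on the log2 scale for heart or liver against each muscle, and 1 between the muscles. Genes had to reach 1 FPKM on a side, or 5 FPKM in a tissue for likeness, where the 3 nearest named genes were taken. The named genes are the 9 members, genes of the pathway lists called in a comparison or high in their list, and these nearest genes. The members and lists were chosen with earlier results of these data known. The calling code was checked on simulated data, in well-detected genes with planted changes well above the thresholds. That check does not cover genes near a threshold or near 0. Python 3.11.15, numpy 2.4.6, pandas 2.3.3 and matplotlib 3.10.9 were used. Alternatives varied the pseudocount, thresholds, filter, scaling, muscle class and gene names. Some genes of these pathways were left out of the lists and are not reported here.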

Additional observations from a re-analysis of the deposited data

How the results depend on the processing

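No paired analysis was possible because each tissue has 1 library. The number of genes enriched in 1 class was 3; it was 0 with the muscles kept apart, 5 with median-of-ratios scaling and 5 at a fold of 3. The number highest in adipose was 1; it was 0 with median-of-ratios scaling, which put GBE1 in liver (adipose minus liver -0.55 on the log2 scale), and 2 after scaling to a sum of 1000000 or to the mean sum. Those common sums left 1 gene highest in liver, as PYGL in liver fell below adipose (liver minus adipose -0.0955 and -0.0947 on the log2 scale). A threshold of 3 left 2 genes lower in heart than in both muscles and 3 lower in liver, without PGM1, and a pseudocount of 5 left 3 lower in heart, without PHKG1. Between the muscles, a threshold of 2 left 0 genes in either direction, a pseudocount of 5 left 0 towards psoas major and 2 towards longissimus dorsi, a sum of 1000000 also left 2 towards longissimus dorsi, and quantile normalisation left 1 towards longissimus dorsi and 0 towards psoas major. Of the 27 nearest genes, 5 were among those nearest by Spearman's rho and 18 among those by r over 8 classes. The heart and liver counts held under each scaling tried, and names from the Ensembl table alone removed PGM1 from each count. No other gene model carried a member's symbol, so that alternative was not run. The mean-sum scaling and the Ensembl names were added after the data were seen. Values near 0.05 FPKM rest on about 1 read per kb.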
